A study of Mus musculus with 4 samples.

Results

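The Mef2 family of mouse muscle transcription factors was followed through 4 RNA sequencing libraries of cultured myoblasts with and without forced Twist2. Its members were taken by gene symbol from the deposited table, where Mef2a, Mef2c and Mef2d are 3 of 3760 listed genes. The fourth paralog, Mef2b, is not among the listed genes and was not analysed here. MEF2 proteins carry a MADS domain, bind an A/T-rich DNA site as dimers and act together with the myogenic basic helix-loop-helix (bHLH) factors MyoD and myogenin to switch on muscle genes. Class IIa histone deacetylases hold them inactive, and calcium-dependent kinases and p38 release or activate them. Twist proteins are bHLH factors themselves and have been described as inhibitors of MyoD and of MEF2 activity in cultured cells.

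All cells were myoblasts from skeletal muscle of adult C57BL/6 mice that the labels call Twist2-positive, grown on matrigel. A retrovirus carried either Twist2-IRES-GFP, in which an internal ribosome entry site joins Twist2 to green fluorescent protein, or GFP alone, so both arms received GFP. Infection lasted 24 h and preceded 24 h of growth medium, which holds 20% fetal bovine serum. The 4 groups were Twist2 cells after 5 days in differentiation medium with 2% horse serum, GFP cells after the same 5 days, Twist2 cells in growth medium and GFP cells in growth medium. Each group had 1 library, and the sources used here do not say how many mice or cultures stood behind it. No difference below therefore has a replicate check, no p-value is given, and library and condition cannot be told apart. Values are CPM, a gene's reads relative to all reads of the library, as the authors deposited them. The 95% intervals come from the reads and cover counting error only.

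The libraries held between 9235281 and 12362290 reads. Twist2 had 674 and 1438 CPM in the Twist2 differentiation and growth medium libraries, against 0 reads in the GFP differentiation library, where 3 reads would be 0.325 CPM, and 1 read in the GFP growth library. The cells carried muscle lineage transcripts in all 4 libraries, with Myod1 between 547 and 1184 CPM and desmin (Des) between 726 and 6503 CPM. Of 5 myoblast markers 4 were listed, all but Myf5. Cdh15 had between 243 and 806 CPM. Pax7 had 34.6 CPM in the Twist2 and 4.01 CPM in the GFP differentiation library, and 60.5 and 78.7 CPM in the Twist2 and GFP growth libraries. Mef2c is also active in blood vessels, lymphocytes and neurons, but none of 6 endothelial, 6 immune and 4 Schwann cell markers and 1 of 5 neuronal markers were listed, which does not show that the others were unexpressed. A gene is listed if it reached 10 CPM in at least 2 libraries and differed at least 2-fold from the GFP growth library in at least 1 of the authors' comparisons. Every listed gene, and so each Mef2 gene, had to differ somewhere.

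The 3 genes had different profiles over the 4 libraries. Mef2a was the most abundant of the family by reads in every library and was lower with Twist2 in both media. Mef2c was almost silent in growth medium, was abundant in differentiated GFP cells and far lower in differentiated Twist2 cells. Mef2d was higher after differentiation with either virus, and less so with Twist2.

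Mef2a (ENSMUSG00000030557, chromosome 7, 67231163 to 67372858, minus strand, GRCm38), the paralog best known for adult and regenerating muscle, had 359 CPM in the Twist2 differentiation library, 639 CPM in the GFP differentiation library, 225 CPM in the Twist2 growth library and 873 CPM in the GFP growth library. These rest on 4439, 5900, 2485 and 8508 reads. The counting intervals of the 4 levels did not overlap, and the GFP growth library was the highest and the Twist2 growth library the lowest.

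Mef2c (ENSMUSG00000005583, chromosome 13, 83504034 to 83667080, plus strand), which is needed for sarcomere integrity in mouse skeletal muscle, had 10.03 CPM in the Twist2 differentiation library and 264 CPM in the GFP differentiation library. These are 124 reads, with a level interval of 8.34 to 11.96 CPM, and 2441 reads, with an interval of 254 to 275 CPM. In growth medium it had 2 reads in the Twist2 library (0.181 CPM, interval 0.0219 to 0.653) and 5 reads in the GFP library (0.513 CPM, interval 0.167 to 1.20). The growth medium intervals overlap, while the GFP differentiation library stands above all others. The Twist2 differentiation level lies just above the 10 CPM that listing requires, so Mef2c is listed by a narrow margin.

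Mef2d (ENSMUSG00000001419, chromosome 3, 88142372 to 88172086, plus strand), whose muscle-specific splice form is known to act late in differentiation, had 155 CPM in the Twist2 and 297 CPM in the GFP differentiation library. In growth medium it had 69.7 CPM (interval 64.8 to 74.8) with Twist2 and 80.3 CPM (interval 74.7 to 86.1) with GFP. Here the differentiation libraries were higher than the growth libraries, and the growth medium intervals touched.

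**Figure D1:**
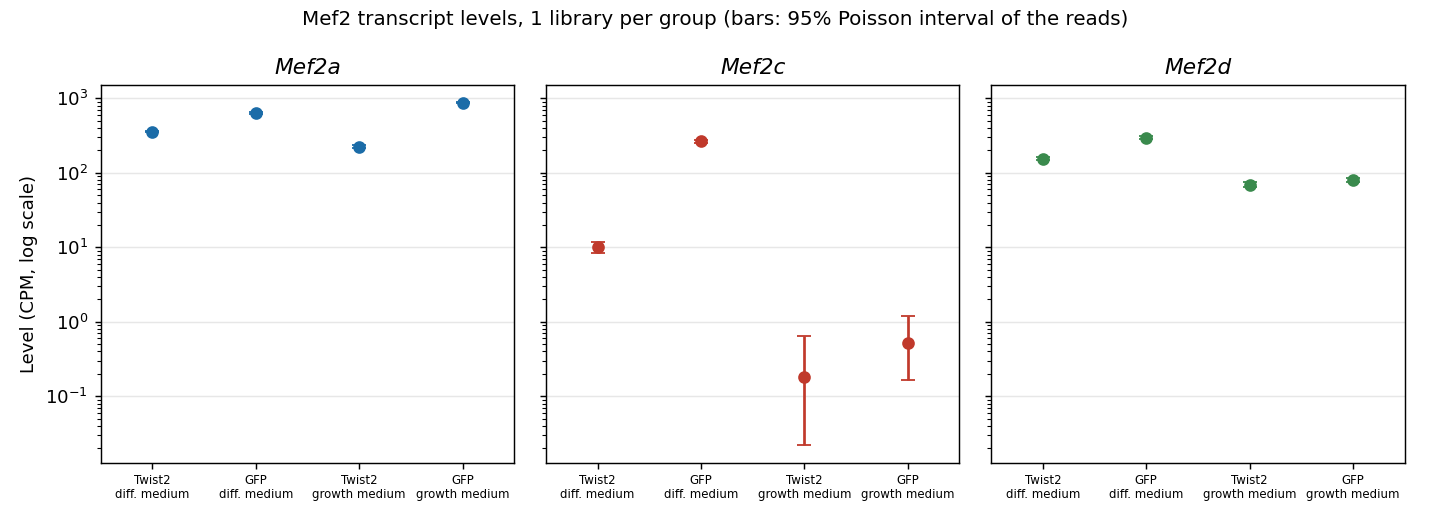
Level of each Mef2 gene in the 4 libraries (vertical axis, CPM on a log scale), with 1 point per library and bars for the 95% Poisson interval of the reads. Mef2c spans from 0.181 to 264 CPM, whereas Mef2a stays between 225 and 873 CPM and Mef2d between 69.7 and 297 CPM.

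Start site windows are shown for Mef2a and Mef2c, the members with the largest differences between Twist2 and GFP in growth and in differentiation medium, because Twist2 is a factor that binds E-boxes and because MEF2 genes can carry sites for their own product. Each window runs from 250 bases before to 50 bases after an annotated start (RefSeq, GRCm38.p6), read 5′ to 3′ on the gene's strand. The Mef2a window is chr7:67372809-67373108 (minus strand) and capitals mark its single match to the MEF2 site. The Mef2c window is chr13:83503784-83504083 (plus strand), the first of 3 annotated starts, and capitals mark its E-boxes CANNTG.
Mef2a: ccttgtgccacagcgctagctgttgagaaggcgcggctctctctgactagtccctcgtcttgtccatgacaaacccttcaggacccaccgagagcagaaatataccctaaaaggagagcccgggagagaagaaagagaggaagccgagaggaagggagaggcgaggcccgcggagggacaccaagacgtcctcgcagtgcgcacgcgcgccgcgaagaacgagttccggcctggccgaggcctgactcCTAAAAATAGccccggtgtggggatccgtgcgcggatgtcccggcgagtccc
Mef2c: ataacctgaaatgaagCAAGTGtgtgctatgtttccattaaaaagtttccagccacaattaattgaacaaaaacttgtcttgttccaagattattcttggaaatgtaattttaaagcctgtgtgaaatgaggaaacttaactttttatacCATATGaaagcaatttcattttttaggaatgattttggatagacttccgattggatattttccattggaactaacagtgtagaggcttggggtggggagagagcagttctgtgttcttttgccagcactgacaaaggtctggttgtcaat
The match in Mef2a spans the annotated start, beginning 2 bases before it (chromosome 7, 67372851 to 67372860), and no E-box is in that window. The MEF2 site was found in 1.86% of 32851 windows of all genes and in 2.04% of 3729 windows of listed genes, searched on both strands. It was searched as CTA or TTA, a core of A or T bases, and TAG or TAA, leaving out TTA together with TAA. The first Mef2c window holds 2 E-boxes, the window at the third start holds 1, and neither the window between them nor the Mef2d window has a match to any motif searched. The E-box CANNTG, which reads the same way on both strands, was in 72.3% of all windows and in 64.3% of those of listed genes, so its presence sets no window apart. The forms CAGCTG and CAGGTG (searched on both strands) were in 16.3% and 20.2% of all windows and in none of the member windows. These are matches of letters and say nothing of binding.

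Differentiated cells were compared first, to ask how far forced Twist2 altered the family in the medium that drives muscle differentiation. Mef2c was 26.4-fold lower in the Twist2 than in the GFP differentiation library (interval 22.0 to 31.8). On the scale of log2(CPM + 1), used for all log2 ratios here, its ratio was -4.59, the lowest among 3437 genes that reached 10 CPM in either of these libraries. It was also the lowest with size factors, with libraries scaled by their reads outside listed genes (called outside-table scaling below), with pseudocounts of 0.1 and 5 CPM and without a pseudocount. The next lowest were Malat1 (-3.93), Fsd1l (-3.79) and Myh8 (-3.69), named here after their values were seen. A gene with at least 10 CPM in the GFP differentiation library alone cannot be listed, so this rank holds among listed genes only.

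Mef2a and Mef2d were lower too, but by less than 2-fold. The ratio of Mef2a was -0.83 (counting interval -0.89 to -0.77), or 1.78-fold lower, and that of Mef2d was -0.93 (interval -1.02 to -0.85), or 1.91-fold lower. With the outside-table scaling they were -1.43 and -1.52, past the 2-fold threshold. At that setting 1550 of 3491 genes compared were at least 2-fold lower and 503 higher. With library totals 1067 listed genes had a lower ratio than Mef2a and 965 a lower one than Mef2d. Thus 1 of 3 members was called at least 2-fold lower, beside 25.2% of all genes compared, while 25.4% were higher and 50.6% differed either way. Higher genes were 50.2% of all calls, or 24.5% with the outside-table scaling.

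Growth medium showed a different member at the low end. Mef2a was 3.89-fold lower in the Twist2 than in the GFP growth library (interval 3.72 to 4.07, log2 ratio -1.95), and 102 of 3514 genes had a lower ratio. For Mef2d the ratio was -0.20 (counting interval -0.35 to -0.06), which became 0.04 with size factors, so its direction depends on scaling. Mef2c, with 2 reads against 5, had a log2 counting interval of -4.90 to 1.11, and no difference was detectable at this depth. The 1 call among the 2 members with at least 10 CPM compares with 10.6% of genes at least 2-fold lower and 5.21% at least 2-fold higher (15.8% either way). The higher share of calls was 33.0%, or 53.0% with size factors.

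**Figure D2:**
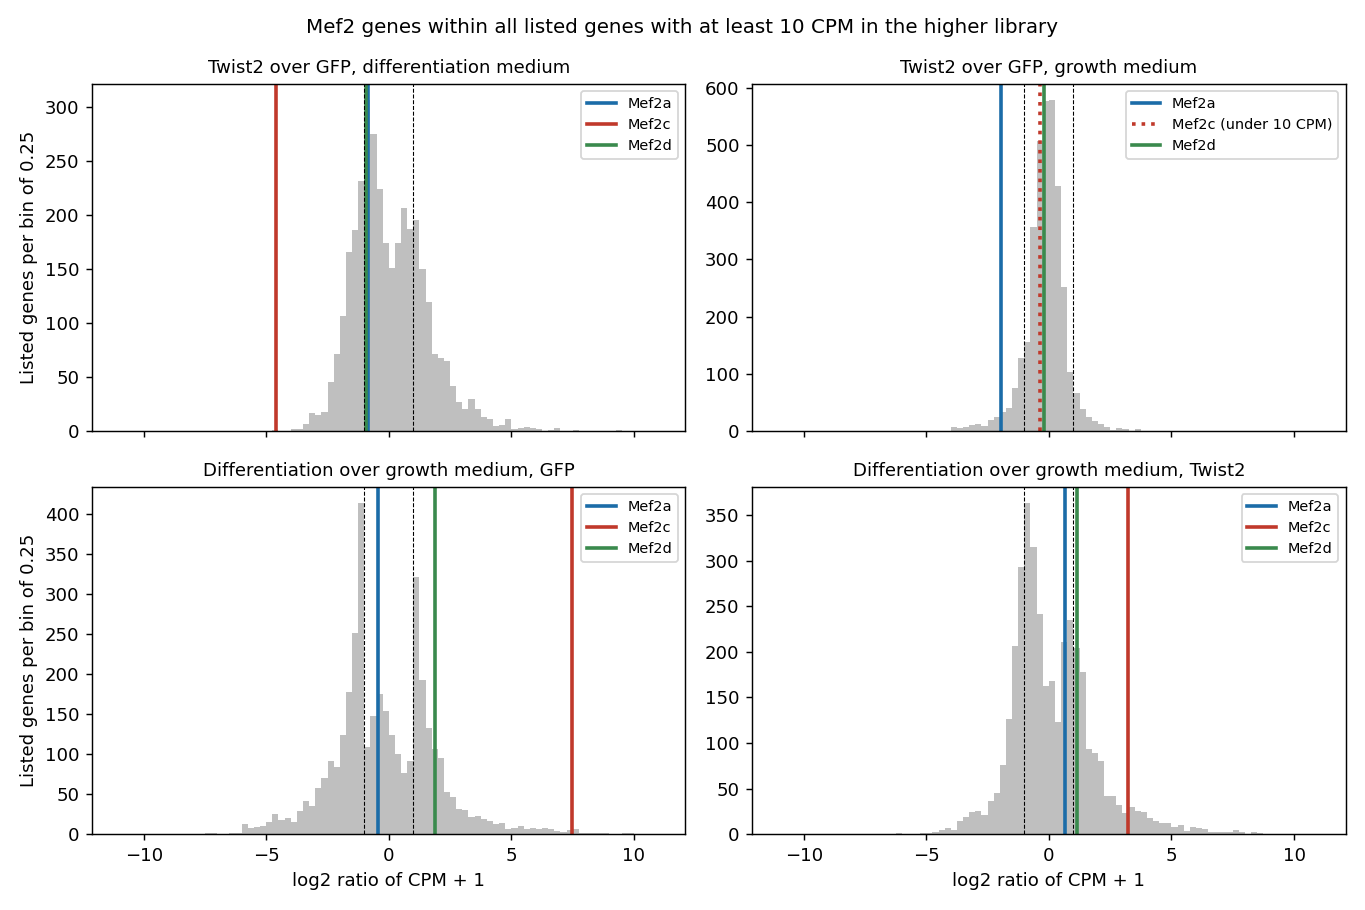
Histograms of the log2 ratio of CPM + 1 (horizontal axis) for all listed genes that reached 10 CPM in either library, 1 panel per comparison, with the 3 Mef2 genes as coloured lines (dotted where under 10 CPM) and dashed lines at 2-fold. Mef2c lies at -4.59, left of all other genes, in differentiation medium, and Mef2a lies at -1.95 in growth medium.

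Mef2c was higher after differentiation in cells of either virus. In GFP cells Mef2c was 515-fold higher in differentiation than in growth medium (interval 220 to 1588), with 16 of 3694 genes at a higher ratio on the pseudocount scale (7.45). In Twist2 cells it was 55.5-fold higher (interval 15.0 to 463), resting on 2 growth medium reads, and its pseudocount ratio was 3.22. Mef2d was 3.70-fold higher in GFP cells (interval 3.42 to 4.01, log2 ratio 1.87) and 2.23-fold higher in Twist2 cells (interval 2.05 to 2.43, log2 ratio 1.15).

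Mef2a was the member that did not follow. It was 0.68 higher on the log2 scale after differentiation in Twist2 cells (counting interval 0.61 to 0.75). In GFP cells it had a ratio of -0.45 (interval -0.50 to -0.40). This is near the median of 3694 genes compared there, -0.38, and 1802 of them had a lower ratio. The GFP value of Mef2a was -0.10 with size factors and 0.35 with the outside-table scaling, so its sign in GFP cells depends on the scaling. Under the outside-table scaling Mef2a was higher after differentiation with either virus. Counted at 2-fold, 2 of 3 members were higher in GFP cells, where 32.6% of listed genes were higher and 40.9% lower (73.5% either way). In Twist2 cells it was also 2 of 3, beside 26.5% higher and 24.5% lower (51.0% either way). With either virus Mef2c passed the 10 CPM minimum only in differentiation medium. The higher share of calls in GFP cells was 44.4%, against 57.9% with size factors and 69.6% with the outside-table scaling, and in Twist2 cells 51.9%, against 66.7% with the outside-table scaling.

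The difference of the responses, Twist2 minus GFP cells, was 1.13 for Mef2a (counting interval 1.04 to 1.21), -0.73 for Mef2d (interval -0.90 to -0.56) and -4.23 for Mef2c. Without a pseudocount that of Mef2c was -3.21, and its interval of -5.84 to 0.19 includes no difference, with 2 and 5 growth medium reads behind it in Twist2 and GFP cells. With a pseudocount of 1 CPM it was the lowest of 3760 genes, but 10 genes were lower with 0.1 CPM. Over all listed genes 25.5% had a difference of at least 1 and 12.6% of -1 or less (38.1% either way), which Mef2a and Mef2c passed in opposite directions. Mef2c was 1 of 289 genes (7.69% of those listed) at least 2-fold higher after differentiation with either virus and at least 2-fold lower in the Twist2 than in the GFP differentiation library, and Mef2d met only the first condition. In all, 20.2% of listed genes met the first condition, with or without the second. With the outside-table scaling the difference of responses of Mef2a stood at 0.58 and that of Mef2d at -1.27.

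Read ratios between genes of 1 library do not depend on how libraries are scaled. For every 100 Mef2a reads there were 2.79 Mef2c reads (interval 2.32 to 3.34) in the Twist2 differentiation library and 41.4 (interval 39.5 to 43.4) in the GFP differentiation library. Mef2c was thus 14.8-fold lower relative to Mef2a (interval 12.3 to 17.96) and 13.8-fold lower relative to Mef2d (interval 11.4 to 16.8) in Twist2 than in GFP cells. For every 100 reads of Myog, the gene of myogenin, there were 2.66 Mef2c reads with Twist2 and 24.6 with GFP, a 9.26-fold lower value with Twist2 (interval 7.70 to 11.2). The shortfall of Mef2c therefore exceeded that of its paralogs and of Myog under any scaling.

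Mef2a and Mef2d kept nearly the same proportion in differentiated cells, with 43.3 Mef2d reads for every 100 Mef2a reads with Twist2 and 46.5 with GFP, a 0.932-fold value (interval 0.868 to 0.9999). In growth medium the proportion differed, at 31.0 with Twist2 and 9.19 with GFP, 3.38-fold higher with Twist2 (interval 3.02 to 3.77).

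Summed over the family, there were 525 CPM in the Twist2 and 1200 CPM in the GFP differentiation library, a 0.437-fold level, and 294 CPM in the Twist2 and 954 CPM in the GFP growth library, a 0.309-fold level. Mef2a held 68.5% of the family's reads in the Twist2 and 53.2% in the GFP differentiation library, and 76.3% and 91.5% in the Twist2 and GFP growth libraries. Mef2c held 1.91% (exact binomial interval 1.59 to 2.28) in the Twist2 and 22.0% (21.3 to 22.8) in the GFP differentiation library. With either virus the family's reads were more evenly divided after differentiation than in growth medium, and the change was larger in GFP cells. Mef2a and Mef2d made up nearly all of these reads in every library except the GFP differentiation library.

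**Figure D3:**
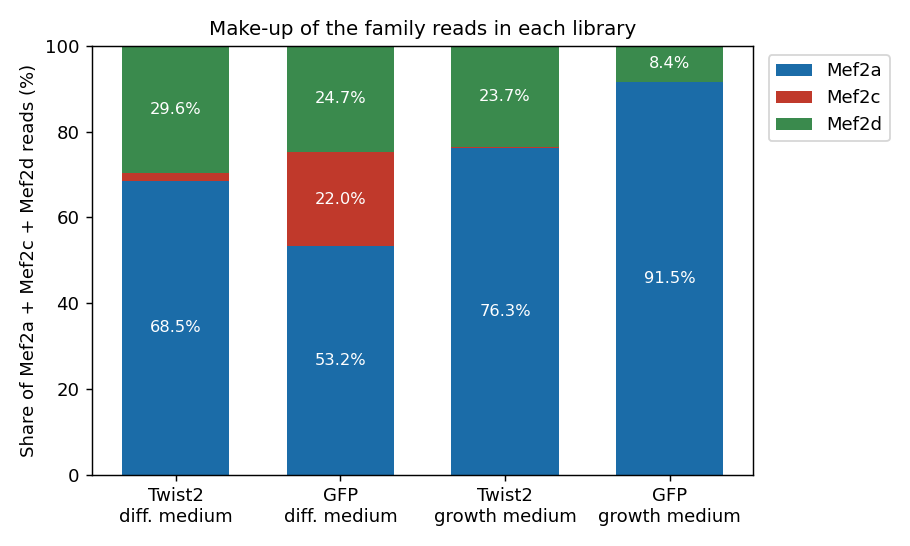
Share of each gene in the summed reads of Mef2a, Mef2c and Mef2d (vertical axis, percent) in the 4 libraries. Mef2c takes 22.0% in the GFP differentiation library, against 1.91% in the Twist2 differentiation library, and is too small to see in growth medium.

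Levels between paralogs can be set side by side only per length, and the length is uncertain because GENCODE lists 12, 31 and 7 transcripts for Mef2a, Mef2c and Mef2d. Per kilobase of all annotated exons, Mef2a, Mef2c and Mef2d stood at 24.5, 0.638 and 26.0 CPM in the Twist2 differentiation library and at 43.5, 16.8 and 49.6 CPM in the GFP differentiation library. In growth medium they stood at 15.3, 0.0115 and 11.6 CPM per kilobase with Twist2 and at 59.5, 0.0327 and 13.4 CPM per kilobase with GFP. On this scale Mef2d was slightly above Mef2a after differentiation, and Mef2a led in growth medium. With the longest coding transcript as length, Mef2a held 68.1% and Mef2d 30.2% of the per-length sum in the Twist2 differentiation library and 54.3% and 25.9% in the GFP one, so the order of Mef2a and Mef2d after differentiation rests on the length used. Mef2c was the lowest of the 3 in both Twist2 libraries and in the GFP growth library with each length tried, and in the GFP differentiation library it ranged from 15.3% of the per-length sum by all exons to 40.8% by the median transcript.

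Antisense neighbours share little of these genes. Lysmd4 overlaps 2.06% of Mef2a's exonic bases on the opposite strand and had at most 31.8 CPM, and an unlisted antisense gene overlaps 8.87% of those of Mef2d. The strand setting of the counting and the handling of reads shared by paralogs are not stated in the labels.

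The listed genes nearest in profile were found by the distance between log2(CPM + 1) values centred over the 4 libraries. Near to Mef2c were Lmod2 (distance 0.92), Igfn1, Gja5 and Myh1 (1.09). Lmod2 encodes an actin filament nucleator of striated muscle and had 13.1 CPM in the Twist2 and 139 CPM in the GFP differentiation library, and Myh1, a fast myosin heavy chain, had 23.8 and 210 CPM there. Each of these 4 had a less negative ratio than Mef2c between those libraries, from -3.32 to -3.09. Gja5, which encodes a connexin, had 0 reads in both growth medium libraries.

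The genes nearest to Mef2d lay much closer to it. They were Taf9b (0.10), a subunit of the general transcription machinery, and Ttc7b, Stom, Rilpl1 and Ccdc86 (0.11). Stom, which encodes the membrane protein stomatin, had 229 and 482 CPM in the Twist2 and GFP differentiation libraries and 109 and 123 CPM in the Twist2 and GFP growth libraries. The nearest to Mef2a were Rhobtb1 (0.25), Purb, Tspan12, Fam178a and Trit1 (0.42). Purb, a nucleic acid binding protein, had 328 and 682 CPM in the Twist2 and GFP differentiation libraries and 173 and 820 CPM in the Twist2 and GFP growth libraries. Among the family, Mef2a and Mef2d were 1.87 apart, and 37.6% of the other genes lay nearer to Mef2a than Mef2d did.

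**Figure D4:**
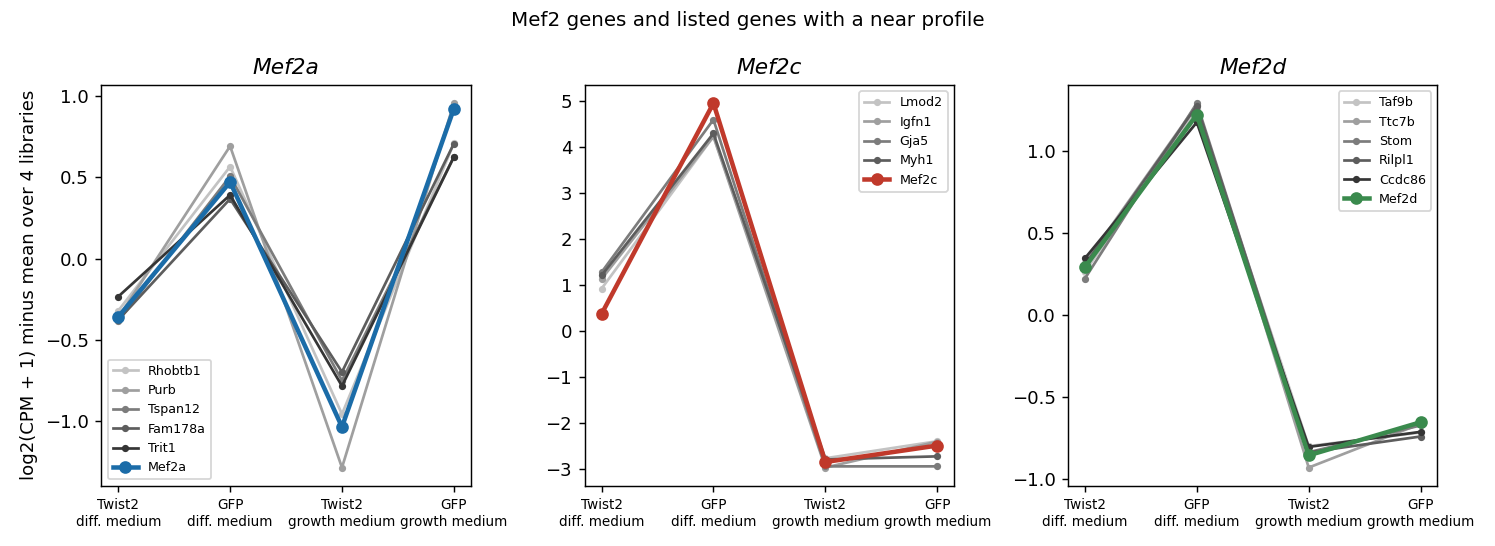
Profiles of the 3 Mef2 genes (colour) and of the near genes named in the text (grey, 5 for Mef2a, 4 for Mef2c and 5 for Mef2d), as log2(CPM + 1) minus the mean over the 4 libraries (vertical axis). Lines join libraries only to guide the eye, and the neighbours of Mef2d lie within a distance of 0.11 while the nearest neighbour of Mef2c is 0.92 away.

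Genes that MEF2 is known to act on in muscle were lower with Twist2 in differentiation medium. The list, drawn up from textbook knowledge, has 25 genes, of which 22 are listed and include Mef2c itself, which is known to be controlled by MEF2 sites. In the Twist2 against the GFP differentiation library, 21 of 22 were past 2-fold on the lower side and 0 on the higher side, beside 25.2% of all genes lower (median log2 ratio -1.79, against -0.19 over all genes). Many members are contractile genes, whose lower level in these libraries was known when the list was made, so the count is not independent evidence. After Mef2c the lowest were Xirp2 (-2.94) and Myom2 (-2.90), which encode an actin-binding repeat protein and an M-band protein, and Myoz2 (-2.84), which encodes a Z-disc partner of calcineurin. Hdac9, a deacetylase gene that MEF2 induces, was the 1 member under 2-fold (-0.70), and it too passed with the outside-table scaling.

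The differentiation libraries are the only pair in which all 22 reached 10 CPM in both. In growth medium 13 targets reached it in the GFP library and 2 of these, Des and Dtna, also in the Twist2 library, so the other 11 could pass only by being lower with Twist2 and no count of calls is given. Des, which encodes the intermediate filament protein desmin, had 726 CPM in the Twist2 and 1501 CPM in the GFP growth library (log2 ratio -1.05), and Dtna, which encodes dystrobrevin alpha, had 29.0 and 46.4 CPM there (-0.66). With differentiation Des had log2 ratios of 2.01 in Twist2 cells and 2.11 in GFP cells, and Dtna of 0.77 in Twist2 cells and 1.12 in GFP cells. Myom2 had 218 CPM in the Twist2 and 1630 CPM in the GFP differentiation library.

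Markers of other states also differed between the libraries. The 6 listed myotube markers of 6 summed to 7380 CPM in the Twist2 and 55818 CPM in the GFP differentiation library, and to 42.5 and 509 CPM in the Twist2 and GFP growth libraries. The 3 listed of 6 fibroblast or fibro-adipogenic markers, Col3a1, Dcn and Ly6a, summed to 8818 CPM in the Twist2 and 561 CPM in the GFP differentiation library, and to 3086 CPM in the Twist2 and 820 CPM in the GFP growth library. Ly6a was at 0 reads in the GFP differentiation library. Col3a1 gave most of these sums. Of 5 smooth muscle or pericyte markers 2 were listed, with no common direction. Acta2 had 5050 CPM in the Twist2 and 7948 CPM in the GFP differentiation library, and Rgs5 had 4.69 and 0.108 CPM there. In bulk RNA, fewer cells of a type and less RNA per cell cannot be told apart, and the part of such markers in the Mef2 values was not tested.

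Other reported targets, outside the contractile apparatus, had no common direction. Of 14 such genes 9 were listed and 8 reached 10 CPM, and of these 2 were at least 2-fold higher and 4 lower in the Twist2 against the GFP differentiation library, beside 25.4% of all genes higher and 25.2% lower. Meg3 and Rian passed the minimum only in the GFP library. Jun (1.23), an immediate early gene, was higher, and Meg3 (-3.09) and Rian (-2.66), noncoding RNAs of an imprinted cluster that MEF2A is reported to activate in mouse muscle, were lower along with Mstn (-1.66), which encodes myostatin. Meg3 was a low gene, with 0.566 CPM in the Twist2 and 12.3 CPM in the GFP differentiation library. With the outside-table scaling none of the 8 was 2-fold higher and 4 were lower, beside 503 of 3491 genes higher and 1550 lower. None of the 8 members with at least 10 CPM was called in growth medium with library totals, beside 15.8% of all genes called either way. Of these 8, 2 passed the minimum only in the GFP library. With size factors 1 was called higher, beside 272 of 3472 genes. With a pseudocount of 0.1 CPM 1 was called lower, beside 386 of 3514 genes.

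Partners and regulators of MEF2 proteins were mostly absent from the table. Of 17 coactivators and bHLH partners 6 were listed, and in differentiation medium 2 were lower with Twist2, Myog (-1.51) and Kdm6a (-1.001), a histone demethylase gene, and 1 was higher, Tcf3 (1.13), which encodes the E protein partner of MyoD. Over all genes 25.2% were lower and 25.4% higher. Tcf4 had a ratio of -0.94. With the outside-table scaling 3 were lower and none higher, beside 1550 of 3491 genes lower and 503 higher. Myod1 had 1068 CPM in the Twist2 and 810 CPM in the GFP differentiation library and 547 and 1184 CPM in the Twist2 and GFP growth libraries. In growth medium Myog (-4.10), Mamstr (-2.21), which encodes a MEF2 coactivator of skeletal muscle, and Myod1 (-1.11) were at least 2-fold lower with Twist2, of which Myog and Mamstr passed the 10 CPM minimum only in the GFP library. Mamstr there had 8.49 CPM with Twist2 and 43.0 CPM with GFP. Between the growth libraries 10.6% of all genes were lower and 5.21% higher. With size factors 2 of the 6 were lower there, beside 241 of 3472 genes, and Myod1 was not among the 2.

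Of 16 genes for class IIa deacetylases, other repressors of MEF2 and 14-3-3 proteins, 6 were listed and include the introduced Twist2. The 14-3-3 genes are not counted as MEF2 repressors. Besides Twist2, the deacetylase gene Hdac7 (1.93) and the 14-3-3 gene Ywhaq (1.013) were at least 2-fold higher with Twist2 in differentiation medium. The share over all genes was 25.4%. Hdac9 went the other way, with a ratio of -0.70. With the outside-table scaling 2 rather than 3 were higher, Twist2 itself included and Ywhaq no longer among them. Hdac9 was then the 1 at least 2-fold lower. Over all genes 503 of 3491 were higher with that scaling and 1550 lower. Hdac7 had 67.7 CPM in the Twist2 and 17.0 CPM in the GFP differentiation library. Twist1 had 9.87 CPM in the Twist2 and 1.62 CPM in the GFP library, under the 10 CPM needed for a call.

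Among 30 kinases, phosphatases and NFAT factors upstream of MEF2, 10 were listed. In differentiation medium 4 were at least 2-fold lower with Twist2, among them Mapk12 (-1.41), a p38 kinase, and Camk2a (-1.22), a calcium-dependent kinase, and 2 were higher, Camk1d (2.38) and Prkd2 (1.68), a protein kinase D gene whose product phosphorylates class IIa deacetylases. Over all genes 25.2% were lower and 25.4% higher, and Camk1d and Prkd2 passed the 10 CPM minimum only in the Twist2 library. With the outside-table scaling 6 were lower and 2 higher, beside 1550 of 3491 genes lower and 503 higher. Growth medium gave 2 higher and 2 lower of 10, beside 5.21% higher and 10.6% lower over all genes, and 3 of the 10 passed the minimum in a single library.

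Of 9 splicing regulators that can act on Mef2 transcripts, 7 were listed. In differentiation medium 6 were at least 2-fold lower with Twist2, beside 25.2% of all genes. These were Rbfox1 (-1.94), Celf2 (-1.59), Mbnl1 (-1.57), Mbnl2 (-1.47), Rbm24 (-1.30) and Srpk3 (-1.17). Srpk3 is also counted among the muscle targets above, so the counts of these lists overlap and are not independent. Rbfox proteins are known to set the muscle form of Mef2d in mouse cells, but the gene-level table does not show isoforms. Ptbp1 (1.15), a repressor of muscle exons, was higher with library totals and with size factors and under 2-fold with the outside-table scaling. Rbfox1 had 19.3 CPM in the Twist2 and 76.8 CPM in the GFP differentiation library.

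**Figure D5:**
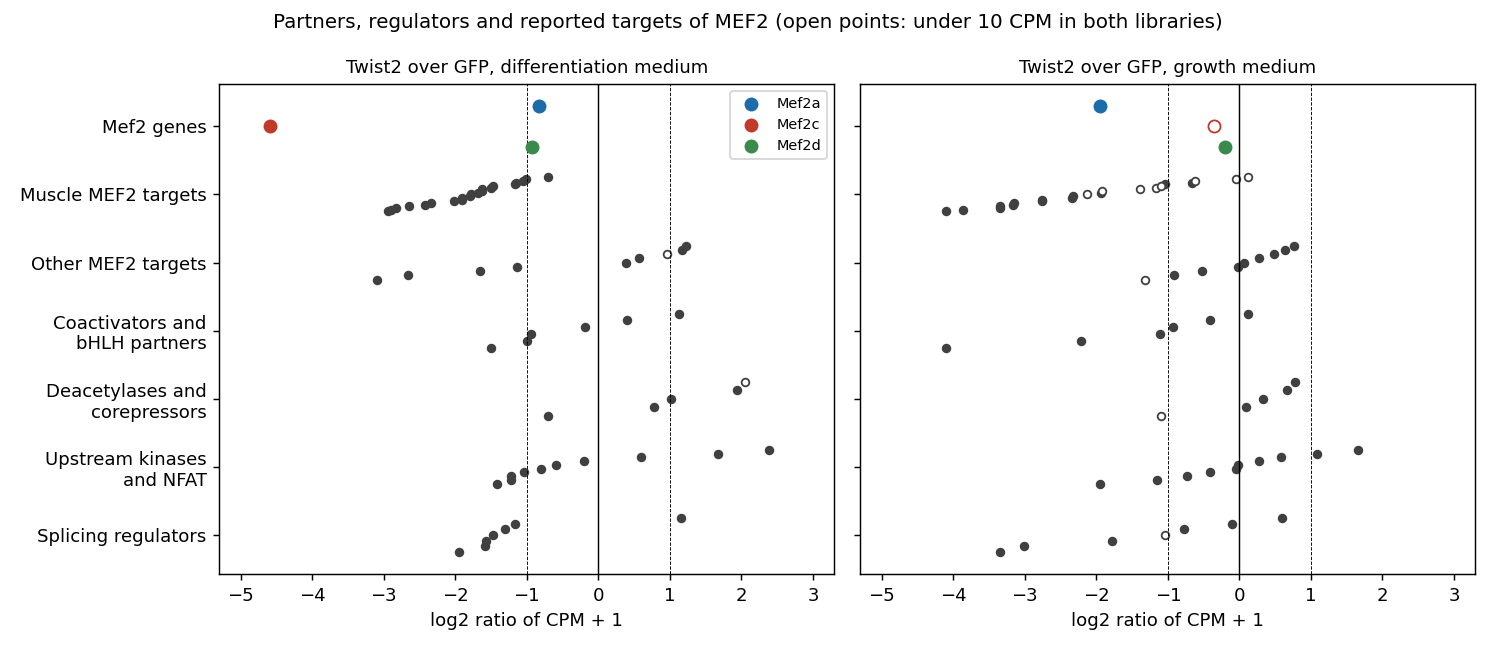
Log2 ratio of CPM + 1 of Twist2 over GFP (horizontal axis) in differentiation medium (left) and growth medium (right). Points are the 3 Mef2 genes and the listed members of 6 gene lists, open where under 10 CPM in both libraries. A gene has 1 point in each list that holds it. Twist2 is not drawn, and Mef2c is drawn only in the row of Mef2 genes. Among the muscle targets 21 of 22, counting Mef2c, lie at or below -1 in differentiation medium.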

How the data were processed

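Per the labels' protocols, 4 libraries were made from total RNA for Illumina sequencing. TopHat2 2.0.0, DESeq2 1.6.3 and the build GRCm38 (mm10) appear, with no role, in the submitters' processing notes. Which program counted reads, with which annotation and strand setting, is not given in the sources used here. CPM values were deposited by the authors for 3760 selected genes, with log2 ratios against GFP growth medium. Those log2 columns of the deposited table equal log2 of (CPM + 1) ratios within 1.27e-11 and served for that check only. The selection (at least 10 CPM in 2 libraries, 2-fold in 1 ratio) was read from the values.

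Each CPM value was a whole multiple of 1 read within 0.001 reads for 100% of values, which gave reads and totals. For each comparison a log2 ratio with a pseudocount of 1 CPM was computed, with calls at 2-fold where the higher library reached 10 CPM. Ratios of reads carry exact conditional 95% intervals (Clopper-Pearson, and the conditional odds ratio for differences of responses and changes of read ratios; scipy 1.17.1). A fold printed with an interval is the ratio of CPM without a pseudocount. No molecular identifiers are stated, so reads are not independent molecules and intervals and floors cover counting error only. A count of 0 was read against a floor of 3 reads. With 1 library per group no count model was fitted. Alternatives were size factors, scaling to reads outside the table, pseudocounts of 0.1 and 5 CPM, no pseudocount and other transcript lengths.

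The calls and intervals were first tested on simulated data with counting error only and planted changes of 3-fold and 8-fold. There 100% of planted changes were called, and the intervals covered between 93% and 96.5% of the planted ratios, depending on the comparison. The simulated data held no variation between cultures or libraries, so they say nothing of replicate spread. Protein sequences of the family were not compared here. Positions and lengths are from GENCODE M21. Named genes are the members, the 5 nearest profiles of each, and up to 4 genes of each list with the largest ratio between the differentiation libraries plus up to 2 against its median, and Twist2, Myod1 and Myog as partners. Mamstr, Hdac9, Dtna, Rbm24, Srpk3, Lysmd4, Malat1, Fsd1l, Myh8 and the markers fall outside this rule or were named after their values were seen. Some genes that this rule selects are left out of the text. Members and lists were chosen with earlier results of these data known.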

Additional observations from a re-analysis of the deposited data

Results flagged for a closer look

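Some genes moved in opposite directions with differentiation in Twist2 and in GFP cells, with counting intervals on either side of no difference. The difference between the viruses was not tested, since each group had 1 library. Mef2a had log2 ratios of 0.68 in Twist2 cells and -0.45 in GFP cells, beside medians over all genes of -0.22 and -0.38. Of its 5 nearest genes, 4 did likewise: Rhobtb1 with 0.63 in Twist2 and -0.14 in GFP cells, Purb with 0.92 in Twist2 and -0.26 in GFP cells, Fam178a with 0.32 in Twist2 and -0.34 in GFP cells, and Trit1 with 0.55 in Twist2 and -0.23 in GFP cells. These genes were chosen for their likeness to Mef2a, so they add no support to it. When libraries were scaled by their reads outside listed genes, the GFP values were 0.35 for Mef2a, 0.64 for Rhobtb1, 0.53 for Purb, 0.46 for Fam178a and 0.55 for Trit1, so the opposition was then absent.

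Myod1 had a log2 ratio of 0.96 with differentiation in Twist2 cells and -0.55 in GFP cells, where the outside-table scaling gave 0.25. It was also opposed between media, with Twist2 over GFP ratios of 0.40 in differentiation medium and -1.11 in growth medium, but with the outside-table scaling these were -0.20 in differentiation medium and -1.17 in growth medium, so the opposition was then absent. Mbnl1, a splicing regulator, had opposite signs to these, with -1.24 in Twist2 cells and 0.22 in GFP cells, and the GFP value was 0.57 with size factors and 1.02 with the outside-table scaling.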

How the results depend on the processing

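No paired analysis was possible because each group had 1 library, and no replicate could be left out. Over 12 member ratios and 4 alternative settings, 46 of 48 values had the sign of the main value and 45 lay on the same side of 2-fold. The outside-table scaling shifted the median of all genes by -0.59 (Twist2 over GFP, differentiation medium), 0.82 (differentiation, GFP cells) and 0.30 (differentiation, Twist2 cells), and size factors by 0.24 (Twist2 over GFP, growth medium) and 0.40 (differentiation, GFP cells).

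Between the differentiation libraries, the outside-table scaling gave -1.43 for Mef2a, -5.18 for Mef2c and -1.52 for Mef2d, with 503 genes higher and 1550 lower, against 873 and 867 with library totals. Size factors gave -0.89 for Mef2a there, and a pseudocount of 5 CPM gave -4.16 for Mef2c. Between the growth libraries, size factors gave -1.71 for Mef2a and 0.037 for Mef2d, with 241 genes lower against 372, and a pseudocount of 0.1 CPM gave -1.13 for Mef2c. For differentiation of GFP cells, size factors gave -0.10 for Mef2a and 2.22 for Mef2d with 963 genes lower, the outside-table scaling 0.35 and 2.67 with 651 lower against 1511, and a pseudocount of 5 CPM 5.61 for Mef2c. For Twist2 cells the outside-table scaling gave 0.93 for Mef2a and 1.40 for Mef2d, and a pseudocount of 5 CPM 1.54 for Mef2c. The difference of responses became 0.82 for Mef2a and -1.03 for Mef2d with size factors, and 0.58 and -1.27 with the outside-table scaling. Listed genes held 47.2% of all reads in the Twist2 and 65.1% in the GFP differentiation library. In the Twist2 and GFP growth libraries they held 36.9% and 39.3%. The outside-table scaling rests on the remaining reads, so its shifts follow from these shares by construction. Why the shares differ, and what lies behind the shifts with size factors, was not tested. Depth limits Mef2c in growth medium most.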
